A study of Homo sapiens with 9 samples.

Results

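The reprogramming factors POU5F1 (OCT3/4), SOX2, KLF4, NANOG, MYC and LIN28B were read by 7 of the 50599 non-control probes of the array. The probes were taken as all those annotated with a RefSeq transcript of a member gene, which gave 2 probes for POU5F1 and 1 for each of the other genes. Only 3 of the 6 genes, POU5F1, SOX2 and KLF4, were carried by the retroviruses of the study, and they account for 4 of the 7 probes. NANOG, MYC and LIN28B are pluripotency or reprogramming factors that were not in the vectors. RNA was profiled in A549, a human lung adenocarcinoma cell line, and in 2 kinds of cells derived from it, with 3 arrays per group and 1 total RNA sample per array. Parental A549 cells carried no vector and were at passage 98 on replicates 1 and 2 and at passage 99 on replicate 3. OSK-A549-Colony cells came from the dome-shaped colonies that formed after transduction of A549 with pMXs retroviruses for OCT3/4, SOX2 and KLF4, and OSK-A549-SN cells were the spindle-shaped cells around those colonies, collected because they left the dish first in trypsin. Both transduced groups were 7 to 9 passages beyond these, with replicates 1 and 3 at the same passage and replicate 2 at the next 1. The methods of the study state that the RNA came from 3 independent transductions, but the labels do not tie a replicate number to a transduction. Cells with an EGFP vector were not analysed here, so transduction, the selection of colonies and the higher passage number cannot be told apart.

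OCT3/4 is a POU-domain factor and SOX2 an HMG-box factor, and the pair binds composite DNA sites in pluripotent cells, among them one in front of NANOG, a homeobox gene of the same network. KLF4 is a zinc-finger factor that binds GC-rich sites, MYC is a helix-loop-helix factor that binds E-boxes as a dimer with MAX, and LIN28B is an RNA-binding protein that blocks the maturation of let-7 microRNAs. A pMXs provirus transcribes the coding sequence of its insert from the retroviral promoter, so a transduced cell can hold transcripts of the vector and of the chromosomal gene. Probe sequences were not used here, and whether a given probe reads vector transcripts was not tested.

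The promoters of NANOG and SOX2 are shown because they hold the letters that OCT3/4 and SOX2 are known to bind, with the capitals marking the match. Each runs from 250 bases before to 50 bases after the start of the gene, on the plus strand of GRCh38.p14, as given by RefSeq. The capitals in NANOG (chr12:7789152-7789451) are the POU-SOX composite, a SOX core and a POU core with 1 base of any kind between them, read on the opposite strand, and those in SOX2 (chr3:181711675-181711974) are the POU core ATGCAAA itself.
NANOG: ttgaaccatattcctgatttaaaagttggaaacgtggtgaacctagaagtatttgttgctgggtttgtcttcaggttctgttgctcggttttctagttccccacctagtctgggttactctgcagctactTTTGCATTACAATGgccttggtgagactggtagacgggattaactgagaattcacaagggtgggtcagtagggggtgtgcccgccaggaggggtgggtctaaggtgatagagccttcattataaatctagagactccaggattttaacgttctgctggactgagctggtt
SOX2: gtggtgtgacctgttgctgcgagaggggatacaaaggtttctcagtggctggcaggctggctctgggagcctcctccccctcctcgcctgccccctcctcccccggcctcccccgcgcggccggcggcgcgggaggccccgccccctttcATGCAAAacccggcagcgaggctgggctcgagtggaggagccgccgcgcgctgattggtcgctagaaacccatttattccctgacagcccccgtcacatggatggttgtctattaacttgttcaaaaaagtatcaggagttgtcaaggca
The composite began 120 bases before the start of NANOG and was found, on either strand, in 3 of 35116 promoters of the same length (0.00854%). The POU core, which is part of the composite, began 100 bases before the start of SOX2 and was found in 4.46% of promoters. Of the 6 genes, 4 had a promoter entry, which were SOX2, KLF4, NANOG and LIN28B. The SOX core CATTGT, also part of the composite, was found in NANOG and LIN28B and in 10.8% of all promoters. The E-box CACGTG was found in KLF4 and LIN28B and in 7.26% of promoters, and GGGNGTGG, a KLF core, in 17.2% of promoters but in none of these 4 genes. These matches describe letters and are not binding sites measured here.

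Intensities are the background-subtracted signals of the scanner software, in arbitrary units that were not scaled between arrays, and they allow comparison of 1 probe across arrays but not of 1 probe with another. For the tests, the intensity was taken as log2 and the 75th percentile of its array was subtracted, a percentile of 217.5 to 270.6 on these arrays. From 25808 to 29315 probes were detected on an array, and r between arrays of a group was 0.983 to 0.997 over 23758 probes. Of the arrays, 8 shared slide 1, and OSK-A549-SN replicate 3 was by itself on slide 2. All 6 epithelial markers examined (EPCAM, CDH1, KRT7, KRT8, KRT18 and KRT19) were well above background on every array, and 7 of 8 fibroblast markers, COL1A2 and DCN among them, were on none. Of 5 endothelial markers, CDH5 and VWF were well above background on every array and PECAM1 and TEK on none. Calls required a fold change over 2 and an adjusted p under 0.05 from limma, with Benjamini-Hochberg adjustment over all tested probes. With 3 arrays per group the precision of each comparison is limited, and because the labels do not say that arrays come from separate cultures, the p-values measure the spread between these samples.

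**Figure D1:**
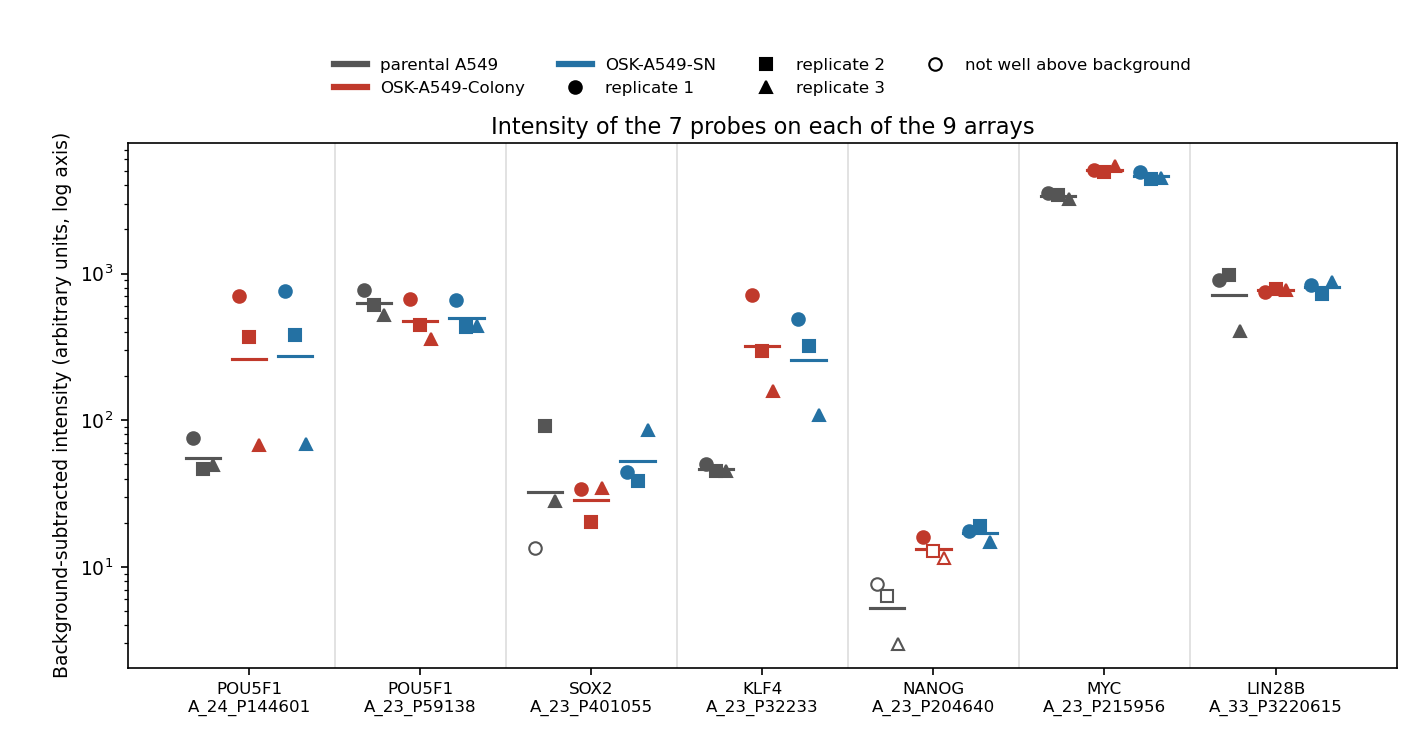
Background-subtracted intensity (log axis) of the 7 probes on each of the 9 arrays, with marker shape for the replicate number, open markers for values not well above background and short lines for the geometric mean of each group. KLF4 and POU5F1 probe A_24_P144601 spread over a wide range in both transduced groups, with replicate 1 highest and replicate 3 lowest, while MYC stayed between 3227 and 5387 on all arrays.

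KLF4 was higher on every transduced array than on any parental array, and it was called in OSK-A549-Colony. Its probe, A_23_P32233, had intensities of 50.4, 45.4 and 44.8 on parental replicates 1, 2 and 3. The corresponding values were 709.8, 294.2 and 158.4 in OSK-A549-Colony. They were 488.8, 319.1 and 108.0 in OSK-A549-SN. All 6 transduced arrays lay above all 3 parental arrays, an arrangement that 20.9% of tested probes showed for OSK-A549-Colony and 16.8% for OSK-A549-SN, and the parental arrays were close together while the transduced arrays were spread over more than a 4-fold range in each group. Relative to the parental mean, KLF4 was 14.6-fold, 6.47-fold and 3.38-fold higher on OSK-A549-Colony replicates 1, 2 and 3. It was 10.9-fold, 7.56-fold and 2.06-fold higher on the OSK-A549-SN replicates. The log2 fold change in OSK-A549-Colony was 2.77 (standard error 0.52, 95% confidence interval 1.48 to 4.06, adjusted p = 0.0373 from limma, n = 3 per group), a 6.83-fold difference. KLF4 was the only 1 of the 7 probes called in this comparison, in which 3.7% of 30864 probes were called and 1.71% were called higher. An unadjusted p under 0.05 was found for 4 of the 7 probes, against 30.1% of all. In the spindle-shaped cells the fitted value for KLF4 was 2.47 (standard error 0.61, interval 0.97 to 3.96), but the adjusted p was 0.1002 from limma and none of the 7 probes was called, against 1.55% of 32218 probes, while 4 of the 7 had an unadjusted p under 0.05 against 21.6% of all. Leaving out any 1 of the 6 arrays of the OSK-A549-Colony comparison ended the call of KLF4, with adjusted p between 0.0617 and 0.134 from limma, while its log2 fold change stayed between 2.23 and 3.28 and the calls over all probes ran from 0 to 1362 against 1143 with all arrays. Leaving out OSK-A549-SN replicate 3, the array alone on its slide, gave a call in that group (log2 fold change 3.18, adjusted p = 0.0238 from limma). The call was also lost with the replicate number as a block (adjusted p = 0.125) and without a detection filter (adjusted p = 0.0631 from limma). With normexp background correction, which adds an offset to every spot, the KLF4 values were smaller, at 1.85 (adjusted p = 0.0189) and 1.57 (adjusted p = 0.0671 from limma).

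The 2 POU5F1 probes gave different pictures of OCT3/4. Probe A_24_P144601 had intensities of 75.9, 46.2 and 49.1 on the parental arrays. It had 699.9, 369.2 and 67.6 on OSK-A549-Colony replicates 1, 2 and 3. On the OSK-A549-SN replicates it had 766.1, 379.9 and 69.1. Replicates 1 and 2 of both transduced groups were far above every parental array, whereas replicate 3 of both groups fell within the range of the parental arrays. The transduced arrays were thus 12.1-fold, 6.82-fold and 1.21-fold above the parental mean for OSK-A549-Colony, and 14.3-fold, 7.57-fold and 1.11-fold above it for OSK-A549-SN. The log2 fold change was 2.21 in OSK-A549-Colony (standard error 0.86, interval 0.09 to 4.34, adjusted p = 0.155 from limma). It was 2.30 in OSK-A549-SN (standard error 0.93, interval 0.02 to 4.58, adjusted p = 0.228 from limma). Neither passed, with SDs of 1.73 and 1.92 on the log2 scale within the transduced groups and 0.35 within parental A549. Without OSK-A549-SN replicate 3 the value was 3.38 and passed (adjusted p = 0.0472 from limma), and without OSK-A549-SN replicate 1 it was 1.53. Without OSK-A549-Colony replicate 3 it was 3.18 with an adjusted p of 0.0617 from limma, and without OSK-A549-Colony replicate 1 it was 1.52. Under normexp correction the values were 1.55 and 1.58, neither of which passed.

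Probe A_23_P59138, assigned to the same POU5F1 transcript, had intensities of 773.8, 615.0 and 525.7 on the parental arrays. It had 671.6, 444.6 and 356.1 in OSK-A549-Colony. In OSK-A549-SN it had 662.3, 430.3 and 436.2. The groups overlapped, and no transduced array was above the highest parental array. Its log2 fold change was -0.42 in OSK-A549-Colony (interval -1.02 to 0.19, adjusted p = 0.307 by limma), and it was -0.32 for OSK-A549-SN (interval -0.92 to 0.28, adjusted p = 0.480), each with a standard error of 0.24. These intervals leave out an increase of the size fitted for A_24_P144601. For A_23_P59138 in OSK-A549-Colony the value was -0.64 without replicate 1 and -0.21 without replicate 3 of that group. In OSK-A549-SN it was -0.55 without replicate 1 and -0.14 without replicate 3. Both probes were well above background on all 9 arrays. POU5F1 has near-identical pseudogene copies, and whether either probe also reads them was not tested.

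SOX2, the third gene of the vectors, showed no difference that passed the test. Its probe, A_23_P401055, had intensities of 13.4, 91.4 and 27.9 on the parental arrays, the first of which was not well above background. OSK-A549-Colony had 34.0, 20.1 and 34.7. OSK-A549-SN had 44.5, 38.5 and 85.5. The highest value of all 9 arrays was that of parental replicate 2 and the lowest that of parental replicate 1, so that both transduced groups lay inside the parental range. For SOX2 in OSK-A549-Colony the log2 fold change was -0.18 (interval -1.94 to 1.57, adjusted p = 0.878 by limma, standard error 0.71). It was 0.71 for OSK-A549-SN (interval -1.003 to 2.43, adjusted p = 0.583 by limma, standard error 0.70). In OSK-A549-SN it was 0.04 without parental replicate 1 and 1.43 without parental replicate 2. The sign in OSK-A549-Colony rested on single arrays, since the value was 0.53 without parental replicate 2 and 0.05 without OSK-A549-Colony replicate 2. SOX2-OT, a long noncoding transcript within which SOX2 lies, was well above background on parental replicate 3 only, with an intensity of 101 there and between 1.99 and 7.61 on the other arrays.

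NANOG, which was not transduced, was dim. Its probe, A_23_P204640, had intensities of 7.61, 6.29 and 2.99 on the parental arrays, none well above background. The values were 16.1, 12.8 and 11.47 in OSK-A549-Colony, of which the first was well above background. They were 17.6, 19.0 and 14.8 in OSK-A549-SN, all well above background. Every transduced array thus lay above every parental array, the arrangement also seen for KLF4 and shown by 20.9% and 16.8% of tested probes. With each parental array set to its dimmest spot well above background, NANOG was 1.28-fold higher in OSK-A549-SN. That level is not a detection limit, so this value is not a strict lower bound. No such value was taken for OSK-A549-Colony, where only the first array was well above background. The fitted log2 fold changes, which rest on parental values at background, were 1.34 (standard error 0.31, adjusted p = 0.0566 from limma) and 1.72 (standard error 0.34, adjusted p = 0.0705 from limma). NANOG passed in OSK-A549-Colony without parental replicate 1 (adjusted p = 0.04995) or 3 (adjusted p = 0.0367 from limma). With all 9 arrays in 1 fit it passed in both groups (adjusted p = 0.0292 and 0.0197 from limma). The comparison of OSK-A549-Colony with parental A549 included NANOG only because replicate 1 of OSK-A549-Colony was well above background. Under normexp correction NANOG was at 0.19 in OSK-A549-Colony (adjusted p = 0.159) and 0.33 in OSK-A549-SN (adjusted p = 0.165 from limma).

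MYC differed by less than 2-fold but with little spread. Its probe, A_23_P215956, was printed 10 times per array, and its highest spot was between 1.20 and 1.27 times its lowest on an array. The mean intensities were 3521, 3417 and 3227 in parental A549. They were 5058, 4932 and 5387 in OSK-A549-Colony. OSK-A549-SN had 4964, 4435 and 4506. All transduced arrays were above all parental arrays, again as for 20.9% and 16.8% of tested probes, with OSK-A549-SN replicate 3 the closest to them once scaled. The log2 fold change was 0.59 in OSK-A549-Colony (standard error 0.10, interval 0.35 to 0.84, adjusted p = 0.0320 from limma), a 1.51-fold difference that passed on its adjusted p, as 9.02% of probes did, but not on its size. In OSK-A549-SN it was 0.46 (standard error 0.15, interval 0.10 to 0.83, adjusted p = 0.156 from limma), a 1.38-fold difference. Without parental replicate 3 the adjusted p in OSK-A549-Colony was 0.0281, and without any other single array it was between 0.0534 and 0.135.

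LIN28B was low on 1 parental array. Probe A_33_P3220615 had intensities of 910.4, 977.8 and 403.6 in parental A549. It had 746.9, 779.0 and 776.5 in OSK-A549-Colony, as well as 831.4, 726.0 and 873.9 in OSK-A549-SN. The 6 transduced arrays lay close together and above parental replicate 3, and their unscaled intensities were below those of the other 2 parental arrays, whereas after scaling OSK-A549-SN replicate 1 was slightly above parental replicate 1. The log2 fold changes were 0.10 (standard error 0.30, adjusted p = 0.831 from limma) and 0.20 (standard error 0.30, adjusted p = 0.720), and without parental replicate 3 they were -0.23 and -0.14. LIN28A, its paralogue, was well above background on parental replicate 2 (45.4) and OSK-A549-Colony replicate 1 (18.0), and on the other arrays it read between 4.81 and 10.9.

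With 3 arrays against 3, an exact two-sided permutation test of a single probe cannot go below p = 0.1. KLF4, NANOG and MYC reached that value in both comparisons with parental A549, and SOX2 reached it between the transduced groups, which says only that their groups did not overlap, as was so in the same direction for 20.9%, 16.8% and 17.3% of tested probes in the 3 comparisons. Both comparisons use the same parental arrays and are not independent of each other.

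**Figure D2:**
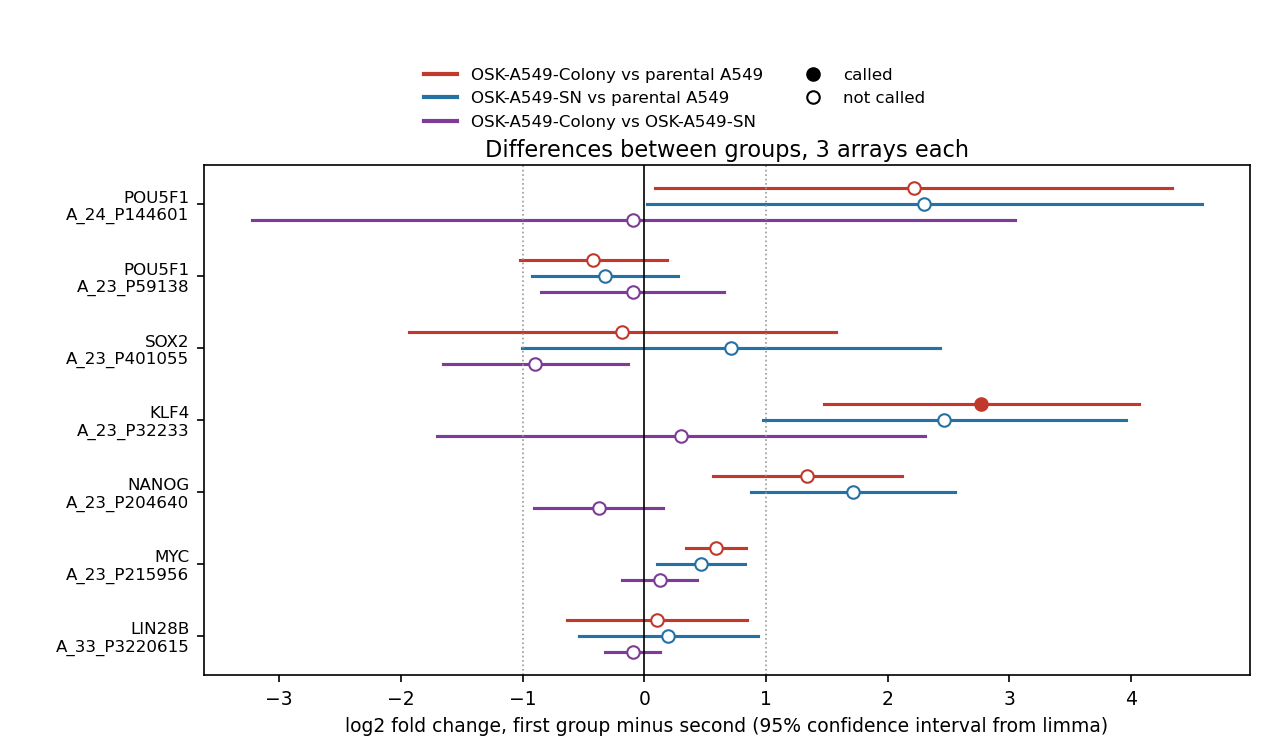
Fitted log2 fold changes (points) with 95% confidence intervals from limma (bars) for the 7 probes in the 3 comparisons, with filled points for calls and dotted lines at a 2-fold change. The only filled point is KLF4 in OSK-A549-Colony against parental A549, at 2.77, and the interval of POU5F1 probe A_24_P144601 between the transduced groups runs from -3.23 to 3.05.

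OSK-A549-Colony was set against OSK-A549-SN to ask whether the factors differed between the 2 transduced populations. None of the 7 probes was called, nor was any of the 31746 probes tested (0%), although 19.5% had an unadjusted p under 0.05 from limma. Among the 7, SOX2 was the 1 probe with such a p. Its 3 OSK-A549-Colony arrays were all below its 3 OSK-A549-SN arrays after scaling, as was so for 17.3% of probes. The log2 fold change of SOX2 was -0.90 (standard error 0.31, interval -1.66 to -0.14, unadjusted p = 0.0283, adjusted p = 0.211 from limma), which is 1.86-fold lower in the colony cells. For the transduced genes with a wide spread, the intervals were broad, at -3.23 to 3.05 around -0.09 for POU5F1 probe A_24_P144601 and at -1.70 to 2.31 around 0.30 for KLF4. POU5F1 probe A_23_P59138 (-0.10, interval -0.85 to 0.66) and NANOG (-0.37, interval -0.90 to 0.15) had intervals that stayed within a 2-fold difference. NANOG was well above background on only 1 of the 3 OSK-A549-Colony arrays, so its interval rests in part on background readings. MYC (0.13, interval -0.18 to 0.43) and LIN28B (-0.09, interval -0.32 to 0.13) had the narrowest intervals of the 7.

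The spread of POU5F1 and KLF4 within the transduced groups went with the replicate number. Set side by side by number, OSK-A549-Colony and OSK-A549-SN differed in POU5F1 probe A_24_P144601 by -0.25, -0.15 and 0.13 on the log2 scale for numbers 1, 2 and 3. Number 1 was 9.97-fold above number 3 in OSK-A549-Colony, 12.97-fold above it in OSK-A549-SN and 1.32-fold above it in parental A549. In KLF4 the same ratio of number 1 to number 3 was 4.31 for OSK-A549-Colony, 5.30 for OSK-A549-SN and 0.96 for parental A549. In POU5F1 probe A_23_P59138 it was 1.82, 1.78 and 1.26. After scaling, all 3 probes had number 1 highest and number 3 lowest in both transduced groups, an order found in both groups for 5.68% of the tested probes, and for A_23_P59138 it was also the order of the parental arrays, as for 1.16% of probes. SOX2 had another order, with number 3 highest and number 2 lowest in both groups, and OSK-A549-Colony was below OSK-A549-SN by 0.50, 1.05 and 1.14 at numbers 1, 2 and 3. Any order at all was shared by the 2 groups for 19.4% of probes. In both transduced groups numbers 1 and 3 were at the same passage, and the part of passage in this order was not tested. For POU5F1 probe A_24_P144601, replicate 3 of OSK-A549-SN, on slide 2, had an intensity of 69.1 and replicate 3 of OSK-A549-Colony, on slide 1, had 67.6.

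**Figure D3:**
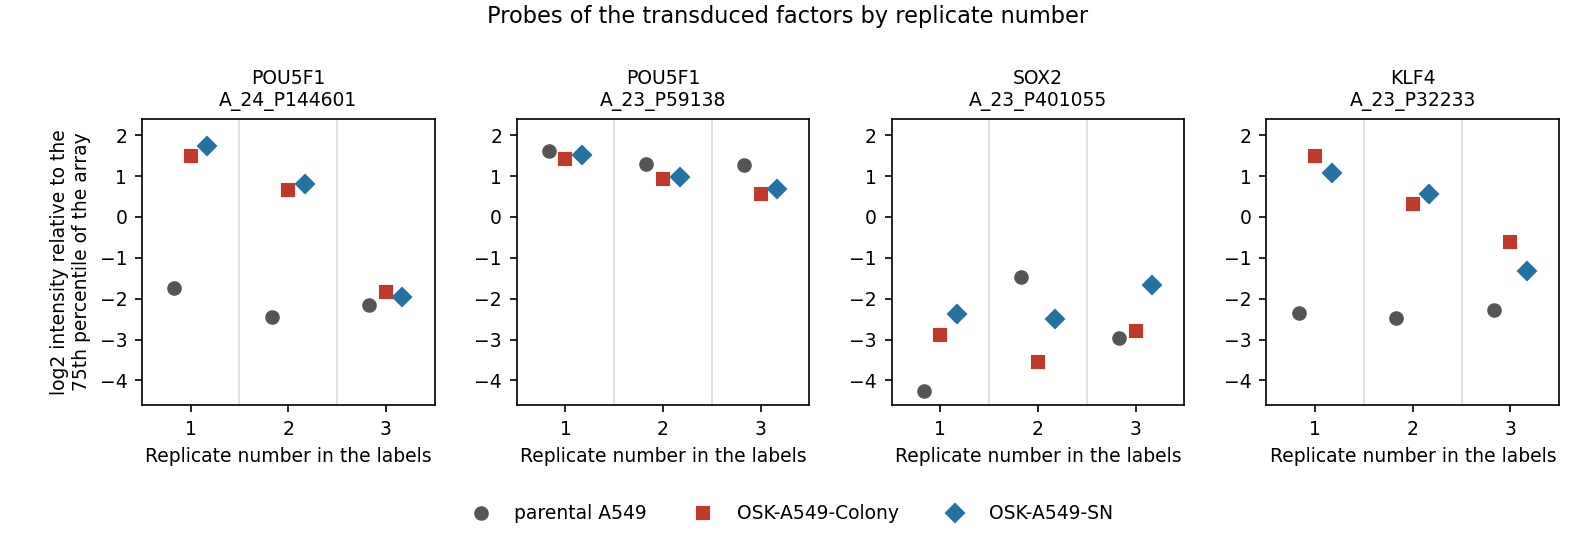
The log2 intensity relative to the 75th percentile of the array (vertical axis) for the 4 probes of the transduced genes, by replicate number (horizontal axis) and group. For POU5F1 probe A_24_P144601 the 2 transduced groups lie within 0.25 of each other at each number, and at number 3 they lie near the parental arrays.

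The replicate number was tested as a factor on the 6 transduced arrays, with the group held, over 31746 probes. The mean of POU5F1 probe A_24_P144601 was 1.60 at number 1, 0.73 at number 2 and -1.90 at number 3, a range of 3.51 on the log2 scale or 11.4-fold. Its F was 293.7, with an unadjusted p of 8.51e-05, which ranked first of all probes, and its range of means ranked at 27. After adjustment it did not pass (adjusted p = 0.637 from limma), and no probe of the array did (0%), while 5.66% had an unadjusted p under 0.05 and 1.42% under 0.01. KLF4 had an F of 34.6 (unadjusted p = 0.00407, adjusted p = 0.649 from limma), ranked at 193 and had a range of 2.26, or 4.78-fold. POU5F1 probe A_23_P59138 had an F of 29.0 (unadjusted p = 0.00554, adjusted p = 0.649 from limma), ranked at 266 and had a range of 0.84, or 1.80-fold. SOX2 ranked at 1940 (unadjusted p = 0.0541) and NANOG at 3525 (unadjusted p = 0.109). MYC and LIN28B had ranges of 0.11 and 0.05 and ranked at 26731 (unadjusted p = 0.795) and 30434 (unadjusted p = 0.942). POU5F1 probe A_24_P144601 passed under 1 alternative, normexp background correction, with an adjusted p of 0.00372, and it ranked between 5 and 109 when any number was left out or the slide was held, and at 754 when the parental arrays were added under the same numbers. The test was asked of these probes with their values known, and the ranks are a description.

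**Figure D4:**
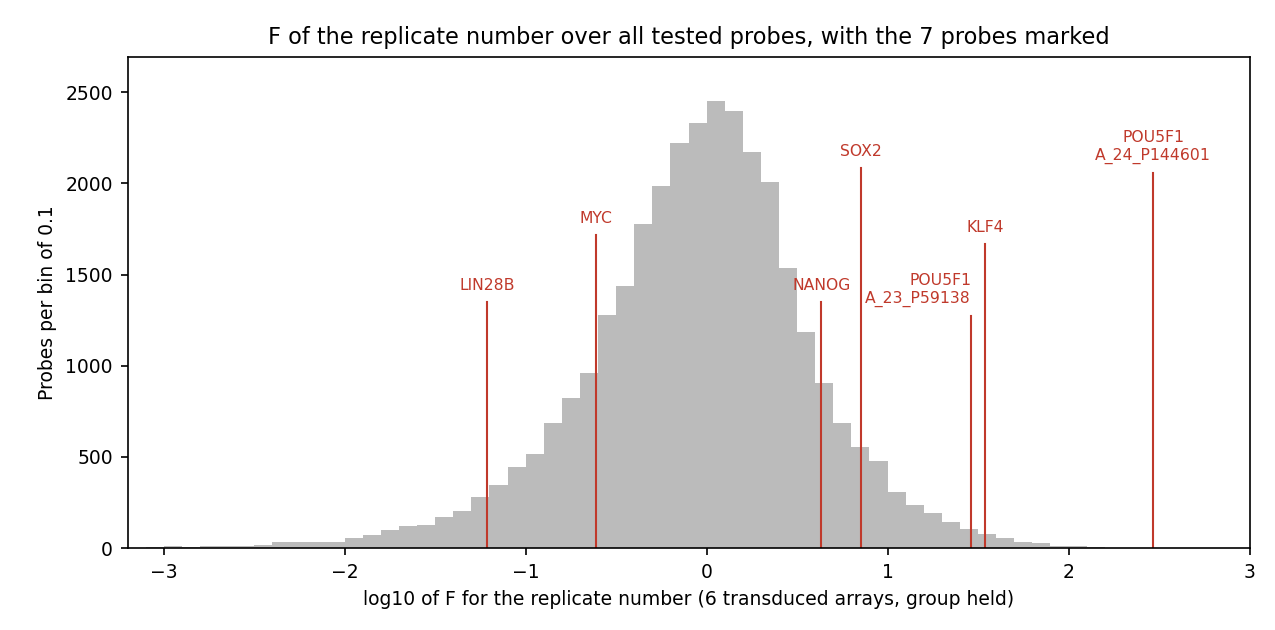
Distribution of log10 F for the replicate number over the 31746 tested probes (grey bars, probes per bin of 0.1), with red lines at the 7 probes. POU5F1 probe A_24_P144601, at an F of 293.7, lies at the far right end, KLF4 and POU5F1 probe A_23_P59138 lie in the upper tail, and MYC and LIN28B lie to the left of the peak.

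The patterns most like these over the 9 arrays were sought among at least 20890 probes with a gene name, as Pearson's r of log2 values, over points that share their arrays and include the differences between the groups. MMP1, a secreted collagenase, was most like KLF4 (r = 0.994), followed by the cathepsin L pseudogenes CTSLP8 (r = 0.989) and CTSLP2 (r = 0.983), which may share signal with each other and with their parent gene. MMP1 read 82.0, 27.8 and 14.8 on OSK-A549-Colony replicates 1, 2 and 3 and 47.4, 26.6 and 12.1 on those of OSK-A549-SN. On the parental arrays MMP1 was never well above background and read between 3.66 and 4.80. For POU5F1 probe A_24_P144601, a probe added to this search after its values were seen, the most alike were AZGP1 (r = 0.981), SORCS2 (r = 0.963) and TRIM29 (r = 0.961). AZGP1 read 51.3, 26.9 and 5.61 in OSK-A549-Colony, then 35.6, 22.1 and 5.55 in OSK-A549-SN, and on replicate 3 of both groups it was not well above background, as on the parental arrays. SORCS2 was also not well above background on replicate 3 of either transduced group or on any parental array. The r values of AZGP1 and SORCS2 thus rest in part on background readings. TRIM29 read 960, 336 and 190 in OSK-A549-Colony. It read 681, 448 and 229 in OSK-A549-SN, while parental A549 had 212, 119 and 116. The probe most like POU5F1 A_23_P59138 was that of PDK1 (r = 0.970), ahead of EGLN3 (r = 0.960) and ARLN (r = 0.955). For SOX2 they were ADAMTS9-AS2 (r = 0.973), SLC6A19 (r = 0.949) and CDKAL1 (r = 0.929), of which ADAMTS9-AS2 was not well above background on 4 of the 9 arrays and SLC6A19 on 5, so that these values rest in part on background readings.

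Of 30 other genes of the pluripotency network, 28 had a probe and 14 were well above background on all arrays of every group. Those on no parental array numbered 11 and those on no OSK-A549-Colony array 13, while 9 were on no OSK-A549-SN array, with DPPA3, DPPA4, GDF3, PRDM14, LEFTY2 and L1TD1 among those on no array of any group. The only call among the 17 network genes tested, against 3.7% of all probes, was SALL4, a zinc-finger partner of OCT3/4, which fell in OSK-A549-Colony from between 310 and 417 to between 111 and 144 (log2 fold change -1.44, standard error 0.18, adjusted p = 0.0219 from limma) and had -1.19 in OSK-A549-SN (adjusted p = 0.0686). With single arrays left out, the SALL4 call held without parental replicate 1 or 3 and was lost without any other array of its comparison (adjusted p between 0.0290 and 0.101 from limma, log2 fold change between -1.58 and -1.32). The fitted value was above 0 for 6 and below 0 for 11 of the 17 in OSK-A549-Colony, with a median of -0.14 against -0.03 over all probes. In OSK-A549-SN it was above 0 for 11 of 21, with a median of 0.02 against 0.08. POLR3G, a polymerase III subunit, had fitted values of 0.96 and 0.83 in the 2 groups, and NR5A2, a nuclear receptor, had 0.78 in OSK-A549-Colony, none of which passed. KLF2, a relative of KLF4, had -0.78 in OSK-A549-SN and was 0.70 higher in the colony cells than in the spindle-shaped cells, with adjusted p of 0.194 and 0.105 from limma. FOXD3, also a network gene, had -0.77 in OSK-A549-Colony against -0.73 for OSK-A549-SN, and between the transduced groups NR0B1 had 0.48 and TFCP2L1 0.42. LEFTY1, named after its values were seen, read between 12.1 and 155 on the parental arrays, of which 2 were well above background. No transduced array was well above background, and neither difference from parental A549 passed (adjusted p = 0.0799 and 0.175 from limma).

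Among 11 partners and antagonists of MYC, 10 were tested in each comparison and MYCN was at background throughout. MYCL, a MYC paralogue, fell in OSK-A549-Colony from between 134 and 149 to between 41.0 and 59.3 (log2 fold change -1.55, standard error 0.18, adjusted p = 0.0193 from limma). MXI1, a repressor that competes with MYC for MAX, fell from between 407 and 512 to between 150 and 235 (log2 fold change -1.27, standard error 0.19, adjusted p = 0.0271 from limma). These were the 2 calls among the 10 genes tested, against 3.7% of all probes, and both were likewise lost without parental replicate 2 or any 1 OSK-A549-Colony array (adjusted p of up to 0.101 for MYCL and 0.116 for MXI1 from limma), with log2 fold changes of -1.67 to -1.43 and -1.41 to -1.12. In the same comparison MXD1, a repressor of the same family, had 0.84 (adjusted p = 0.0352) and MLX, a dimer partner of that family, 0.50 (adjusted p = 0.0400 from limma), both under 2-fold, and MXD4, a further repressor of the family, had -1.02 (adjusted p = 0.0737). The fitted value was above 0 for 5 and below 0 for 5 of the 10 genes. In OSK-A549-SN the values were -0.93 for MYCL (adjusted p = 0.0508) and -0.75 for MXI1 (adjusted p = 0.0663), and MXD4 had -0.87 (adjusted p = 0.177 from limma). Between the transduced groups MXD1 had 0.84 (adjusted p = 0.106), MYCL -0.62 (adjusted p = 0.136) and MXD3 -0.56 (adjusted p = 0.106 from limma). The list medians were -0.01, -0.03 and 0.04 in the 3 comparisons, beside -0.03, 0.08 and -0.06 over all probes.

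The 12 genes of the LIN28 and let-7 axis were all tested and none was called in any comparison, beside 3.7%, 1.55% and 0% of all probes in the 3 comparisons. DICER1, which cuts microRNA precursors, had 0.64, TUT7, a terminal uridylyltransferase, 0.62 and ARID3B, a let-7 target, -0.34 in OSK-A549-Colony, with adjusted p between 0.0823 and 0.165 from limma. In OSK-A549-SN, HMGA1 had 0.44, TUT7 0.40 and ARID3B -0.37. HMGA2, a let-7 target, was lower in the colony cells than in the spindle-shaped cells by a log2 fold change of -0.64 (adjusted p = 0.225 from limma), and DICER1 and IGF2BP3 had 0.43 and 0.30 there. The medians of the list were 0.06, 0.06 and 0.03.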

How the data were processed

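RNA of 9 samples was hybridised by the authors to single-colour Agilent arrays. The deposited intensity of each spot came from Agilent Feature Extraction 11.5.1.1, background-subtracted but not scaled across arrays. A log2 table deposited by the authors equalled the log2 intensities shifted by 1 constant per array (100% of probes within 0.001). Control spots (4259 of 62976) and outlier-flagged spots (357 to 484 per array, none of a member) were left out, spots of a probe were averaged as log2, and each array's 75th percentile was taken off. Gene names came from RefSeq accessions (30275 probes, 21743 names), and coordinates are given for promoters only, since the array annotation uses another build. No spot was saturated. A probe was detected where a share of 0.5 of its spots or more was positive, significant and well above background, a class that began at intensities of 9.41 to 14.4.

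Groups were compared with limma 3.58.1 in R 4.3.3 on the 6 arrays of each comparison, over probes detected on at least 1, and Dunnett's test used multcomp 1.4.28. The replicate number was tested with limma's F test. In simulated data with 200 probes shifted by 2 on the log2 scale, the share recovered against parental A549 was 86.3% with OSK-A549-Colony, 82.2% with OSK-A549-SN and 86.6% between the transduced groups, and 3.95%, 5.24% and 4.52% of calls were false. For the replicate number, with a shift of 4, 83.6% were recovered and 3.69% of calls were false. Recovery of probes with a spread as wide as that of KLF4 or POU5F1 probe A_24_P144601 within the transduced groups was not tested. The members and lists were chosen with earlier results of these data known. Named beyond the members were list genes with a call and up to 3 per list and comparison with the largest change, of those well above background wherever the brighter group was measured, and the 3 genes most like the brightest probe of each transduced gene. Alternatives were normexp correction (on median spot brightness, offset 50), quantile normalization, 2 other detection filters, the deposited log2 table, all 9 arrays in a single fit, slide or replicate number as a block, no fold threshold, Dunnett's test and leaving out each array.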

Additional observations from a re-analysis of the deposited data

How the results depend on the processing

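Of the 7 probes, 1 was called in OSK-A549-Colony against parental A549, and this became 0 without a detection filter and 0 with the replicate number as a block. It became 2 with all 9 arrays in 1 fit, 2 without a fold threshold and 3 by Dunnett's test without adjustment across probes, and it ranged from 0 to 1 when single arrays were left out (0 without parental replicate 2 and without each OSK-A549-Colony array). KLF4 lost its call in 8 of 14 alternatives, in which its log2 fold change was 2.23 to 3.28. In OSK-A549-SN against parental A549, 0 were called. The count was 2 among probes detected on all arrays of a group, 1 with all 9 arrays in 1 fit and 3 by Dunnett's test. It was 0 to 2 with single arrays left out (2 without OSK-A549-SN replicate 3) and 2 with slide as a block. Since OSK-A549-SN replicate 3 was alone on slide 2, these last 2 settings gave the same fold changes and are not separate checks. Dunnett's test, which was run on the 7 probes alone and so has no share over the array, passed KLF4, NANOG and MYC in both groups. Between the transduced groups it was 0 throughout. For the replicate number it was 0, and 1 with normexp correction. Over all probes, calls ran from 0 to 2783, from 0 to 1054, from 0 to 139 and from 0 to 24 in these 4 tests (1143, 498, 0 and 0 as reported). NANOG could not be fitted in 2 alternatives against OSK-A549-Colony, where the filter left it out.

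Of 306 alternative log2 fold changes, 12 reversed, in 6 of 21 results, with slide as a block counted beside the equal fit without OSK-A549-SN replicate 3. With single arrays left out, SOX2 in OSK-A549-Colony ran from -0.86 to 0.53 (0.53 without parental replicate 2, 0.05 without OSK-A549-Colony replicate 2). LIN28B ran from -0.23 to 0.30 for OSK-A549-Colony and from -0.14 to 0.39 for OSK-A549-SN, below 0 without parental replicate 3. Between the transduced groups KLF4 ran from -0.41 to 0.81, at -0.41 with slide as a block and without OSK-A549-SN replicate 3, and at -0.24 without OSK-A549-Colony replicate 1. POU5F1 A_23_P59138 ran from -0.32 to 0.13, at 0.13 without OSK-A549-SN replicate 1 and at 0.11 without OSK-A549-Colony replicate 3. POU5F1 A_24_P144601 ran from -1.17 to 0.88, at 0.68 and 0.22 without OSK-A549-SN replicates 1 and 2, and at 0.88 without OSK-A549-Colony replicate 3. The causes were not tested.

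Same-numbered arrays did not deviate together over all probes beyond the limit set for pairing (r between -0.0446 and 0.0605, with 0 pairs over 0.1), so the numbers were not taken to pair the arrays. The replicate block left 0 of the 7 probes called in each of the 3 comparisons, as it left 0 of all probes. Among the OSK-A549-SN arrays, each OSK-A549-Colony array correlated best with that of its own number, which was at the same passage (r of 0.0541, 0.0219 and 0.0605). This order came from the data and not from the design. Arrays of unlike number reached a larger r, at 0.1139 for OSK-A549-SN replicate 2 with parental replicate 3. The same-number values are therefore too small to show a pairing.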

Other observations

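Blood markers were read beside the members because HBB, a haemoglobin chain, was called in OSK-A549-Colony, where it was above parental A549 (between 101 and 146 against between 25.2 and 62.4, log2 fold change 1.75, standard error 0.36, adjusted p = 0.0434 from limma). Among fits that left out single arrays, HBB was called only without parental replicate 1 (adjusted p between 0.0281 and 0.138 from limma, log2 fold change between 1.49 and 2.13). PTPRC and CD14 had log2 fold changes of -0.57 and -0.74 there and were not called, and CD3E was well above background on 1 parental and 0 OSK-A549-Colony arrays. Of the 5 blood markers, PTPRC, CD14 and HBB were well above background on all arrays. The summed intensity of all 5 was 743 to 1729 in parental A549, 696 to 753 in OSK-A549-Colony and 843 to 1014 in OSK-A549-SN. This sum adds different probes and was mostly CD14, which read 615 to 1647 in parental A549. The part of other cells in any difference was not tested.

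Of the 2 probes of LIN28B-AS1, which is antisense to LIN28B, A_33_P3382222 was well above background on no array and A_32_P86180 read between 592 and 838 on 8 arrays and 1617 on OSK-A549-SN replicate 3, the array on slide 2, while LIN28B itself was 874 there.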
